A study of Mus musculus with 4 samples.

Results

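Integrin alpha and beta subunits were examined in mouse embryonic fibroblasts with and without focal adhesion kinase (FAK). The members were a list of 10 subunit genes (Itga3, Itga5, Itga6, Itga7, Itga11, Itgav, Itgb1, Itgb3, Itgb5 and Itgb8), each taken with every array probe set that the platform annotation pairs with that gene alone. This gave 28 probe sets for 9 genes, out of 34958 probe sets for 18194 genes in all. No probe set was paired with Itga11, which was not analysed here. The 4 groups were untreated FAK-/- cells, untreated FAK+/+ cells, FAK-/- cells after 24 h of endothelin-1 (ET-1, a small secreted peptide best known for constricting blood vessels) and FAK+/+ cells after 24 h of ET-1. All cells were used at passage 5 and were starved of serum for 24 h before the treatment period. Each group was measured on 1 Affymetrix mouse expression array, and the labels do not say how many embryos or lines of each genotype were used. A genotype difference therefore cannot be told apart from a difference between cultures.

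Integrins are heterodimers of an alpha and a beta subunit that span the plasma membrane and bind extracellular matrix outside the cell. Inside the cell, talin and kindlin bind the tail of most beta subunits, and FAK is recruited to the adhesions that form there. Itgb1 is the shared partner of Itga3, Itga5, Itga6, Itga7 and Itga11, while Itgav pairs with Itgb1, Itgb3, Itgb5 or Itgb8. In fibroblasts the Itga5 dimer is the classical fibronectin receptor, and the Itgav dimers bind ligands with the arginine-glycine-aspartate motif, among them vitronectin and the latent form of TGF-beta.

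The RefSeq promoter table (GRCm38.p6, 250 bases before to 50 after a gene's start) held 7 of the 10 genes, and 3 promoters are shown for Itgb8 and Itga3, which were higher in FAK-/- cells, and for Itgb5, which was lower. Capitals mark matches on either strand to the GC box, searched with the letters GGGCGG, or to the box of letters CCAAT. The sequences run in the 5′ to 3′ direction of the gene. The Itgb8 window is chr12:119238227-119238526 on the minus strand, the Itga3 window, at the upstream one of its 2 listed starts, is chr11:95076665-95076964 on the minus strand, and the Itgb5 window is chr16:33829415-33829714 on the plus strand.
Itgb8: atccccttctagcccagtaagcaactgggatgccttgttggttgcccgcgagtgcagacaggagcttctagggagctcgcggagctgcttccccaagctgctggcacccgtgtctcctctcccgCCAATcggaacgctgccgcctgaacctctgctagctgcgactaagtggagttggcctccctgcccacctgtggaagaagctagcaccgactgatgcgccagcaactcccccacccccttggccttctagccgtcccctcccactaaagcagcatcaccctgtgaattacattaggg
Itga3: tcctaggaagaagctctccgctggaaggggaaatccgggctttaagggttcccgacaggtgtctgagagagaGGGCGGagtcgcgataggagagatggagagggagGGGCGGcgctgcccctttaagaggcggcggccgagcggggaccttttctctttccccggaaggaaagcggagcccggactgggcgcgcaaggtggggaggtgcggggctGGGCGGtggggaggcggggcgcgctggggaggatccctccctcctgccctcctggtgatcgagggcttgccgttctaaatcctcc
Itgb5: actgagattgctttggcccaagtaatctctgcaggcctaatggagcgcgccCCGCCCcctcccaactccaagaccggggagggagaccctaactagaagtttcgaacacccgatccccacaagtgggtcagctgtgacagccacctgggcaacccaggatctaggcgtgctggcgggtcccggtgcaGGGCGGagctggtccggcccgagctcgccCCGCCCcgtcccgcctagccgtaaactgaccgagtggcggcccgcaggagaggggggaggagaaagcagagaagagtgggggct
The Itgb8 window held 0 GC boxes and 1 CCAAT box, which began 126 bases before the start. The Itga3 and Itgb5 windows held 3 GC boxes each and 0 CCAAT boxes. Of 32851 promoters in the table, 35.7% held a GC box and 37.4% a CCAAT box. Also searched on both strands were TATAAA, the core promoter element, held by 13.6% of promoters, TGACGTCA, the cyclic AMP response element, held by 1.79%, and the AP-1 element, searched with TGANTCA and held by 7.81%. They had no match in these 3 windows, and no matches overlapped. A match is a description of the sequence and no sign of a factor's binding. The Itgb8 window was 60.7% G or C, the Itga3 window 66.7% and the Itgb5 window 65.7%, against a median of 52.7% over all promoters.

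The deposited values are log2 levels per probe set, so a difference of 1 is 2-fold. Probe sets whose highest value over the 4 arrays did not exceed 8.90, the median of all values, were left out of tests, and 18 of the 28 integrin probe sets passed, with at least 1 for each of the 9 genes. The 3′ probe set of the control transcript Gapdh exceeded its 5′ probe set by 3.79 in the ET-1-treated FAK+/+ array, against 0.85 to 0.90 in the other arrays. This array enters the genotype difference after ET-1, the ET-1 difference in FAK+/+ cells and every estimate, SE and p averaged over treatments or genotypes, and the part of this gap in them was not tested. The genotype difference in untreated cells does not rest on this array. For Actb, a second control transcript, the gap was 1.30 in untreated FAK-/- cells, against 0.66 in untreated FAK+/+ cells, and 1.27 in ET-1-treated FAK-/- cells, against 1.81 in ET-1-treated FAK+/+ cells, so it differed between the untreated arrays too.

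**Figure D1:**
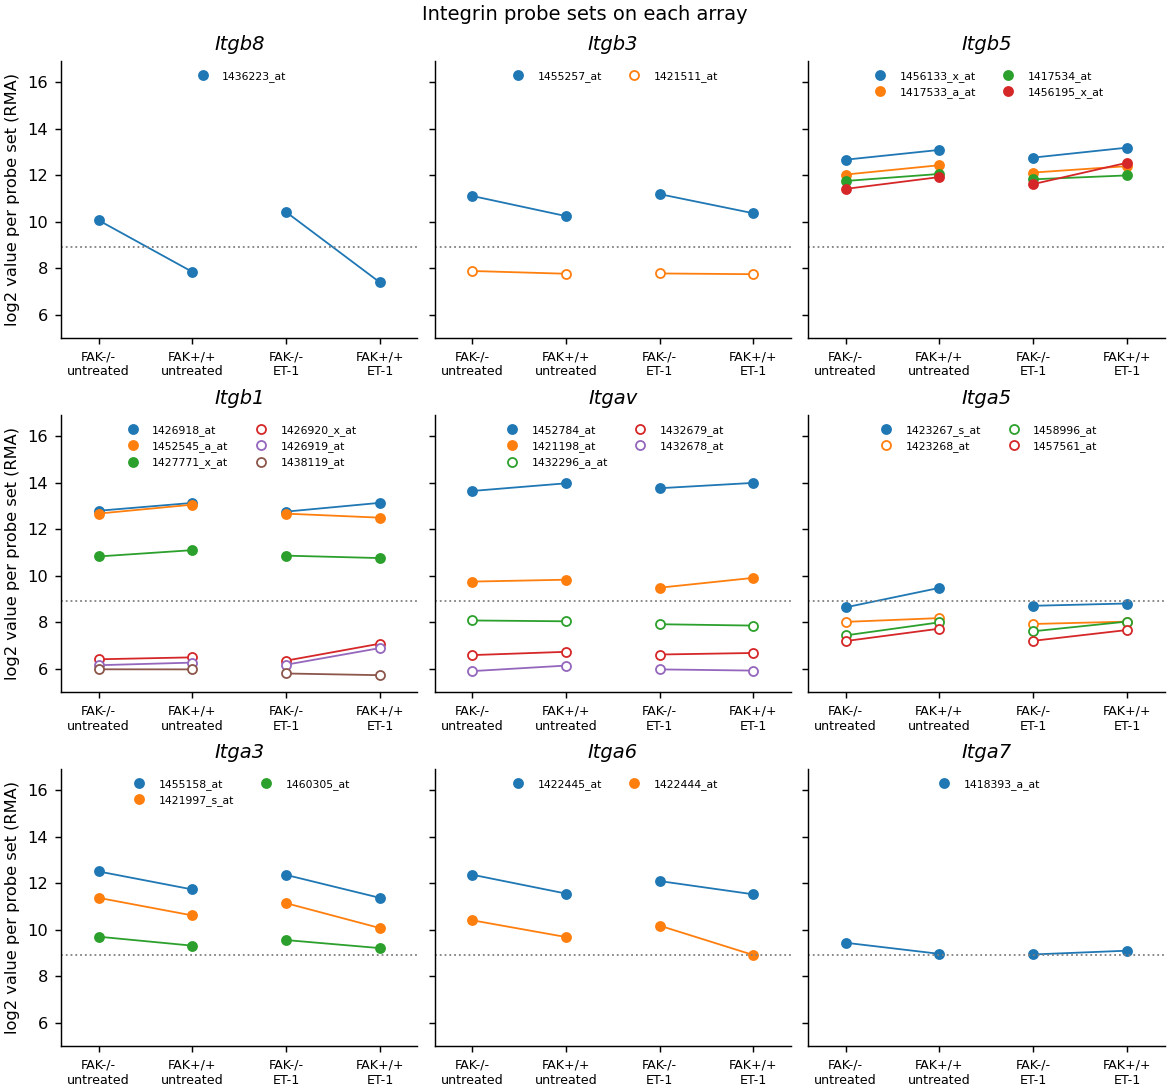
Log2 value of every integrin probe set on each of the 4 arrays, one panel per gene, with lines joining the FAK-/- and FAK+/+ arrays of one treatment state; filled points passed the level filter, open points did not, and the dotted line is the filter at 8.90. Itgb8 lies above the line in both FAK-/- arrays and below it in both FAK+/+ arrays, and all 4 Itgb5 probe sets are lower in FAK-/- cells in both states.

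Integrin genes differed from one another in the direction and size of the FAK difference. Itgb8, Itgb3, Itga3 and Itga6 read higher in FAK-/- cells in both treatment states, Itgb5 read lower by all of its probe sets, and Itgav, Itgb1, Itga5 and Itga7 gave small differences or differences that varied between probe sets or states. Averaged over treatments, 2 of the 18 probe sets (Itgb8 and Itgb3) rose in FAK-/- cells and 0 fell by limma at an adjusted p under 0.05. That is 11.1% of the integrin probe sets, against 8.45% of all 20939 probe sets tested (4.17% higher, 4.27% lower). Itgb8, counted here and in the shares below, passed the level filter only through the FAK-/- arrays, where it is high. It thus entered the test because the genotypes differ. At an unadjusted p under 0.05, 7 integrin probe sets were higher and 2 lower, which is 50.0% of the 18, against 27.2% of all probe sets. Several probe sets among them belong to the same gene, so they are not independent. The members, and the gene lists described later, were chosen with earlier results of these data known. Their shares therefore describe the lists and are no test of them. In untreated cells the 18 genotype differences had a median of -0.18 (0.02 over all probe sets), and with ET-1 their median was 0.00 (-0.01 over all probe sets). At 2-fold or more, 1 integrin probe set was higher and 0 lower in untreated cells, against 9.38% of all probe sets (4.75% higher, 4.63% lower). With ET-1, 3 were higher and 0 lower, against 12.7% of all probe sets (6.38% higher, 6.31% lower). Both genotype differences had the same sign for 15 of the 18 probe sets (7 higher, 8 lower), against 70.5% of all probe sets tested. The limma fit takes genotype and treatment as additive terms, so the genotype by treatment term is its only residual degree of freedom. Its standard error (SE) and p combine that term with a variance estimated over all probe sets tested (prior degrees of freedom 2.6). They do not measure a spread between cultures.

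**Figure D2:**
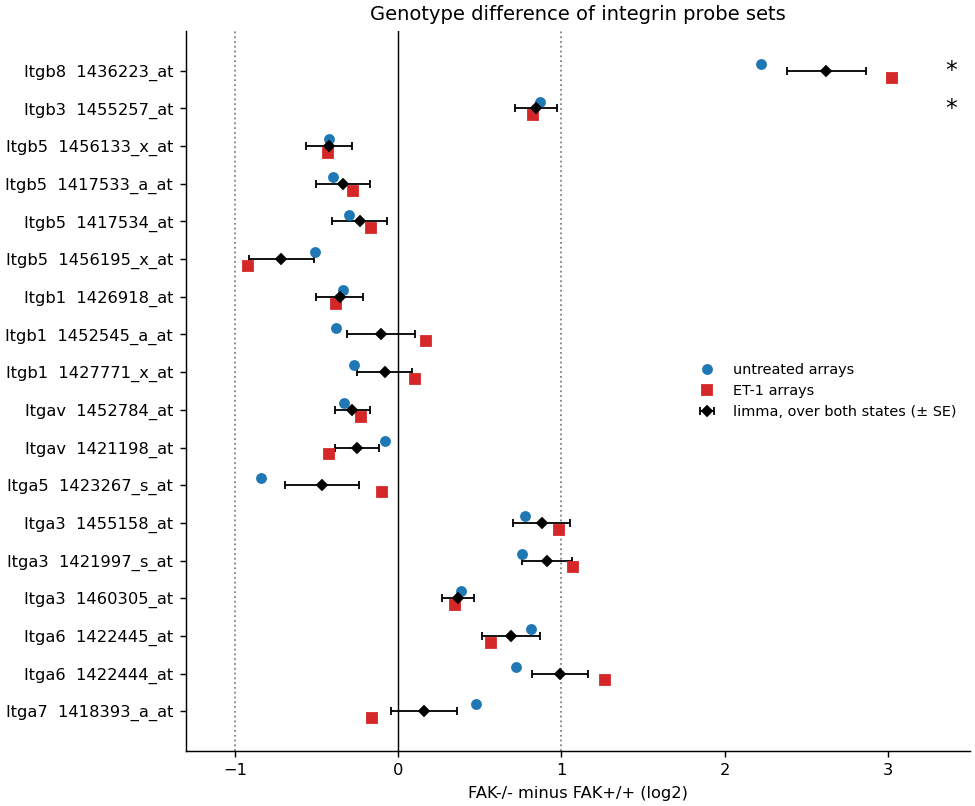
FAK-/- minus FAK+/+ log2 difference of the 18 integrin probe sets that passed the level filter, for untreated arrays (circles), ET-1 arrays (squares) and the limma estimate over both (diamonds, bars ± SE); dotted lines mark 2-fold and asterisks an adjusted p under 0.05. Itgb8 (2.62) and Itgb3 (0.85) carry asterisks, and the 4 Itgb5 probe sets lie left of 0.

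Itgb8 encodes a beta subunit that pairs with Itgav alone and is known for binding latent TGF-beta. It had the largest genotype difference of the members. In untreated cells it read 10.06 in FAK-/- cells, against 7.84 in FAK+/+ cells, and after ET-1 it read 10.41 in FAK-/- cells, against 7.38 in FAK+/+ cells. Both FAK-/- arrays lie above both FAK+/+ arrays, with 1 array per group, and both FAK+/+ values are below the level filter. How many of all probe sets show such an order of the arrays was not counted, here or for the other members. The fold as measured was 4.66 in the untreated pair of arrays and 8.14 in the ET-1 pair. A setting added after the data were seen raised the FAK+/+ values to the filter at 8.90. The fold was then 2.23 in the untreated pair and 2.84 in the ET-1 pair. The filter is the median of all values, so these folds are not lower bounds. Averaged over treatments Itgb8 rose by 2.62 ± 0.24 on the log2 scale (SE, limma adjusted p = 0.0242). It passed the level filter only through the FAK-/- arrays, where it is high, so it entered the test because the genotypes differ. With no level filter its adjusted p by limma was 0.0417. It has 1 probe set on the array, so no second one could be set beside it.

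Itgb3, which pairs with Itgav to form a vitronectin receptor, also rose. Its brighter probe set read 11.10 in untreated FAK-/- cells, against 10.24 in untreated FAK+/+ cells. After ET-1 it read 11.18 in FAK-/- cells, against 10.36 in FAK+/+ cells. Both FAK-/- values lie above both FAK+/+ values, again with 1 array per group. The difference had nearly the same size in both states, 1.82-fold untreated and 1.77-fold after ET-1. The limma estimate was 0.85 ± 0.13 (SE, adjusted p = 0.0475). With both Itgb3 probe sets averaged before the fit it was 0.46 ± 0.09 (SE, limma adjusted p = 0.0365). This call lies close to the threshold: the adjusted p of limma was 0.0793 with no level filter, 0.0509 without probe sets whose names end in _x_at or _s_at, and 0.0506 without an intensity trend. A dimmer Itgb3 probe set, below the level filter on every array, differed by 0.12 untreated and 0.03 after ET-1.

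Itgb5, another partner of Itgav and a vitronectin receptor subunit, read lower in FAK-/- cells. The brightest of its 4 probe sets read 12.66 in untreated FAK-/- cells, against 13.08 in untreated FAK+/+ cells, and 12.75 in ET-1-treated FAK-/- cells, against 13.18 in ET-1-treated FAK+/+ cells. All 4 probe sets were lower in FAK-/- cells in both states, by 1.23-fold to 1.42-fold untreated and by 1.12-fold to 1.89-fold after ET-1. None passed limma, with adjusted p from 0.131 to 0.463, so the lower level is given as values. The brightest probe set had a difference of -0.42 ± 0.14 (SE, adjusted p = 0.178).

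Set side by side by the brightest probe set of each gene, the genotype difference of Itgb3 exceeded that of Itgb5 by 1.29 on the log2 scale in untreated cells and by 1.25 after ET-1. This is a difference of differences, it was not tested, and it does not compare the abundance of the genes. Itgb1, which also pairs with Itgav, is described with Itga5.

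Itgav itself varied little with genotype. Its brightest probe set read 13.64 in untreated FAK-/- cells, against 13.97 in untreated FAK+/+ cells, and 13.76 in ET-1-treated FAK-/- cells, against 13.99 in ET-1-treated FAK+/+ cells. The FAK-/- values are the lower ones in both states, by 1.26-fold and 1.17-fold, and limma gave -0.28 ± 0.10 (SE, adjusted p = 0.209). The second probe set that passed the filter differed by -0.08 untreated and -0.42 after ET-1. The other 3 were below the filter on every array, with differences from -0.24 to 0.06 over both states.

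The laminin-binding alpha subunits Itga3 and Itga6, which form receptors for basement membrane laminins with Itgb1, read higher in FAK-/- cells by every probe set. The brightest Itga3 probe set read 12.50 in untreated FAK-/- cells, against 11.73 in untreated FAK+/+ cells, and 12.35 in ET-1-treated FAK-/- cells, against 11.37 in ET-1-treated FAK+/+ cells. With 1 array per group, both FAK-/- arrays are above both FAK+/+ arrays for all 3 Itga3 probe sets, which measure the same gene. The folds were 1.31 to 1.71 untreated and 1.27 to 2.10 after ET-1. The limma estimates were 0.88 ± 0.17, 0.91 ± 0.15 and 0.37 ± 0.10 (SE), with adjusted p of 0.0744, 0.0573 and 0.128, so none passed.

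Itga6 gave a similar picture. Its brighter probe set read 12.36 in untreated FAK-/- cells, against 11.55 in untreated FAK+/+ cells, and 12.09 in ET-1-treated FAK-/- cells, against 11.52 in ET-1-treated FAK+/+ cells. The second read 10.40 against 9.68 in untreated FAK-/- and FAK+/+ cells and 10.17 against 8.91 in ET-1-treated FAK-/- and FAK+/+ cells. The FAK-/- arrays are the higher ones throughout, and the spread between folds was wider after ET-1 (1.49 and 2.40) than in untreated cells (1.75 and 1.65). Limma gave 0.69 ± 0.18 and 0.99 ± 0.17 (SE, adjusted p = 0.116 and 0.0602). When the probe sets of a gene were averaged before the fit, the Itga3 difference was 0.72 ± 0.13 (SE, limma adjusted p = 0.0312) and the Itga6 difference 0.84 ± 0.13 (SE, limma adjusted p = 0.023), so both genes passed in that setting.

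Itga7, a laminin receptor subunit best known from muscle, was close to the level filter on all arrays. It read 9.44 in untreated FAK-/- cells, against 8.96 in untreated FAK+/+ cells, and 8.93 in ET-1-treated FAK-/- cells, against 9.10 in ET-1-treated FAK+/+ cells. The genotype difference changed sign between states, and limma gave 0.16 ± 0.20 (SE, adjusted p = 0.688).

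Neither member of the fibronectin receptor pair, Itga5 and Itgb1, passed the test. The Itga5 probe set that passed the filter read 8.64 in untreated FAK-/- cells, against 9.47 in untreated FAK+/+ cells, and 8.70 in ET-1-treated FAK-/- cells, against 8.80 in ET-1-treated FAK+/+ cells. The untreated FAK+/+ array stands above the other 3, which are all below the filter. The limma difference was -0.47 ± 0.23 (SE, adjusted p = 0.297). The other 3 Itga5 probe sets were below the filter on every array, and all were lower in FAK-/- cells in both states, by -0.56 to -0.10.

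Itgb1, the common beta subunit, had 6 probe sets, and 3 passed the filter. The brightest read 12.79 in untreated FAK-/- cells, against 13.13 in untreated FAK+/+ cells, and 12.75 in ET-1-treated FAK-/- cells, against 13.13 in ET-1-treated FAK+/+ cells. The FAK-/- values are 1.26-fold and 1.30-fold lower, with a limma difference of -0.36 ± 0.14 (SE, adjusted p = 0.226). The other 2 probe sets that passed were lower in untreated FAK-/- cells (-0.38 and -0.27) and higher after ET-1 (0.17 and 0.10). The sign of the genotype difference after ET-1 thus depends on the probe set, and it rests on the ET-1-treated FAK+/+ array with the large Gapdh gap. In that array these 2 probe sets read 0.56 and 0.34 below untreated FAK+/+ cells, while the brightest differed by 0.00. The other 3 Itgb1 probe sets were below the filter on every array. Between the genotypes they differed by -0.08, -0.11 and 0.00 untreated and by -0.73, -0.72 and 0.07 after ET-1. In the ET-1-treated FAK+/+ array they differed from untreated FAK+/+ cells by 0.59, 0.63 and -0.25.

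After ET-1 the integrin probe sets moved less than 2-fold in both genotypes. None of the 18 reached 2-fold in either, against 0.735% of all probe sets tested in FAK-/- cells and 2.81% in FAK+/+ cells. Averaged over genotypes, 0 of the 18 passed limma at an adjusted p under 0.05, and 0 of all 20939 did. At an unadjusted p under 0.05 there was 1 integrin probe set, which was lower, against 4.56% of all probe sets. This was the dimmer Itga6 probe set, at -0.50 ± 0.17 (SE, limma adjusted p = 0.817). The median ET-1 difference of the 18 was 0.02 in FAK-/- cells (-0.02 over all probe sets) and -0.05 in FAK+/+ cells (0.03 over all probe sets).

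In FAK-/- cells the ET-1 differences ran from -0.50 (Itga7) to 0.35 (Itgb8), and in FAK+/+ cells from -0.78 (the dimmer Itga6 probe set) to 0.62 (an Itgb5 probe set whose name ends in _x_at). All 3 Itga3 and both Itga6 probe sets were lower after ET-1 in both genotypes, by -0.27 to -0.15 in FAK-/- cells and by -0.78 to -0.03 in FAK+/+ cells. Itgb3 differed by 0.08 in FAK-/- cells and by 0.12 in FAK+/+ cells. The brightest Itgav probe set differed by 0.12 in FAK-/- cells and by 0.02 in FAK+/+ cells. Itga5 differed by 0.07 in FAK-/- cells and by -0.67 in FAK+/+ cells. The FAK+/+ values again rest on the array with the large Gapdh gap, and with 1 array per group none of these values has a replicate check. At 2-fold or more, 0 of the 18 probe sets differed between the genotypes in their ET-1 difference, against 4.42% of all probe sets.

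**Figure D3:**
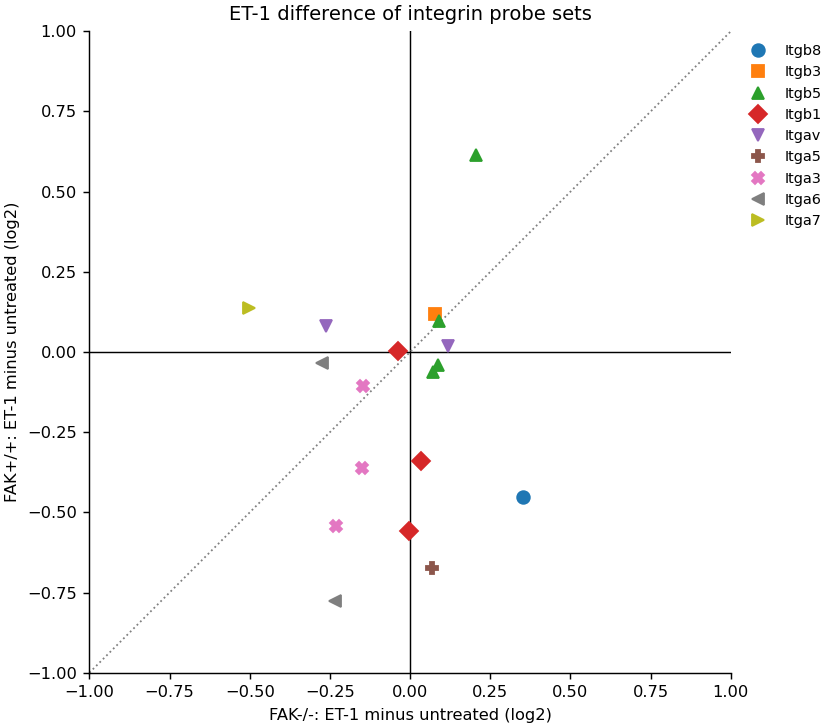
ET-1 minus untreated log2 difference of the 18 integrin probe sets, in FAK-/- cells (horizontal axis) and FAK+/+ cells (vertical axis), one marker shape per gene; the dotted line marks equal differences. Values span -0.50 to 0.35 in FAK-/- cells and -0.78 to 0.62 in FAK+/+ cells, and Itgb8 lies at 0.35 and -0.45.

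Among the remaining integrin subunits no gene passed the test. Of 16 listed, 15 had a probe set and 6 passed the level filter by their brightest probe set, and 0 rose and 0 fell in a limma fit of 1 probe set per gene. In that fit 13.6% of 12290 genes were called (6.6% higher, 7.05% lower). The leukocyte subunits Itgb2, Itgam, Itgal and Itgax and the epithelial subunits Itgb4 and Itgb6 were below the filter on all 4 arrays. Itga1, a collagen receptor subunit, read 8.46 in untreated FAK-/- cells, against 8.73 in untreated FAK+/+ cells, and 8.31 in ET-1-treated FAK-/- cells, against 9.87 in ET-1-treated FAK+/+ cells. Only the ET-1-treated FAK+/+ array was above the filter for it, and its limma difference was -0.91 ± 0.34 (SE, adjusted p = 0.176). Itga10, another collagen receptor subunit, differed by -0.10 untreated and -0.60 after ET-1, Itgb7 by -0.53 and -0.11, and Itga2b, the platelet partner of Itgb3, by 0.14 and 0.11.

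Among integrin ligands more genes fell than rose in FAK-/- cells. Of 30 listed genes 22 passed the filter, 8 fell and 1 rose by limma with 1 probe set per gene (7.05% lower and 6.6% higher over all genes), and the list's median was -0.58 untreated (0.02 over all 12290 genes) and -0.77 with ET-1 (-0.03 over all genes). Tenascin-C (Tnc), a ligand of Itgav dimers, fell by 2.48 ± 0.22 (SE, limma adjusted p = 0.0102), thrombospondin-1 (Thbs1) fell by 2.79 ± 0.32 (SE, limma adjusted p = 0.0161) and periostin (Postn) fell by 4.98 ± 0.95 (SE, limma adjusted p = 0.0478). The Postn value averages unlike differences, -3.11 untreated and -6.85 after ET-1. Postn read 7.70 in ET-1-treated FAK-/- cells, below the level filter, against 10.98 in untreated FAK-/- cells. The 1 ligand gene that rose was Lama5, a laminin chain of basement membranes and a ligand of the Itga3 and Itga6 dimers. It read 11.77 in untreated FAK-/- cells, against 10.76 in untreated FAK+/+ cells, and 11.96 in ET-1-treated FAK-/- cells, against 10.42 in ET-1-treated FAK+/+ cells, a limma difference of 1.27 ± 0.19 (SE, adjusted p = 0.0291). The other laminin chains of the list were not called. Lamb1 differed by -0.07 untreated and -0.81 after ET-1, Lamb2 by -0.41 and -0.10, and Lamc1 by 0.32 and 0.15. Lama1, Lama2, Lama3 and Lama4 were below the filter on all arrays. Fibronectin (Fn1) differed by 0.00 untreated and by -0.02 after ET-1.

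Inside the cell, 34 of 38 listed adhesion adaptors and activators passed the filter, and 2 rose and 6 fell by limma with 1 probe set per gene (6.6% higher and 7.05% lower over all genes). Kank1, which binds talin at the edge of adhesions, rose by 2.39 ± 0.15 (SE, limma adjusted p = 0.00651), and Ptk2b, which encodes the FAK relative Pyk2, rose by 2.05 ± 0.15 (SE, limma adjusted p = 0.00771). The largest falls were those of Tgfb1i1 (Hic-5, a paxillin relative), which fell by 2.94 ± 0.20, Fblim1 (migfilin), which fell by 2.35 ± 0.11, and Parvb (beta-parvin, a partner of integrin-linked kinase), which fell by 2.12 ± 0.09 (SE each). Parvb passed the filter only through the FAK+/+ arrays, and it read 8.54 untreated and 7.88 after ET-1 in FAK-/- cells. The same holds for Tns2, another of the 6 that fell, which read 8.68 untreated and 8.74 after ET-1 in FAK-/- cells. Tln1, the main talin, had a difference of 0.79 ± 0.16 (SE, limma adjusted p = 0.0526) and Tln2 fell by 1.70 ± 0.11 (SE, limma adjusted p = 0.00671), so the talin genes had opposite signs. The kindlin gene Fermt2 differed by 0.01 untreated and -0.30 after ET-1. Of 14 tetraspanins and other integrin partners 12 passed the filter, and 0 rose and 0 fell. The largest values there were those of the syndecan Sdc4 (1.04 ± 0.23, SE, limma adjusted p = 0.0628) and the caveolin Cav1 (-0.84 ± 0.17, SE, limma adjusted p = 0.057).

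Latent TGF-beta, a ligand of the Itgav dimer with Itgb8, is made by several genes. Of 12 listed genes of this group 8 passed the filter, and 1 rose and 1 fell by limma with 1 probe set per gene (6.6% higher and 7.05% lower over all genes). The receptor Tgfbr1 rose by 0.90 ± 0.15 (SE, limma adjusted p = 0.0369), and Ltbp1, which tethers latent TGF-beta to matrix, fell by 4.12 ± 0.14 (SE, limma adjusted p = 0.00556). In FAK-/- cells Ltbp1 read 7.59 untreated and 7.19 after ET-1, both below the level filter, against 11.50 and 11.51 in FAK+/+ cells. It passed the filter only through the FAK+/+ arrays, where it is high, so it entered the test because the genotypes differ. Tgfb3 read 10.95 in untreated FAK-/- cells, against 10.43 in untreated FAK+/+ cells, and 11.16 in ET-1-treated FAK-/- cells, against 9.99 in ET-1-treated FAK+/+ cells, a limma difference of 0.84 ± 0.20 (SE, adjusted p = 0.0746). Tgfb1 differed by -0.03 untreated and 0.01 after ET-1, and Tgfb2 by -0.30 and -0.18.

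**Figure D4:**
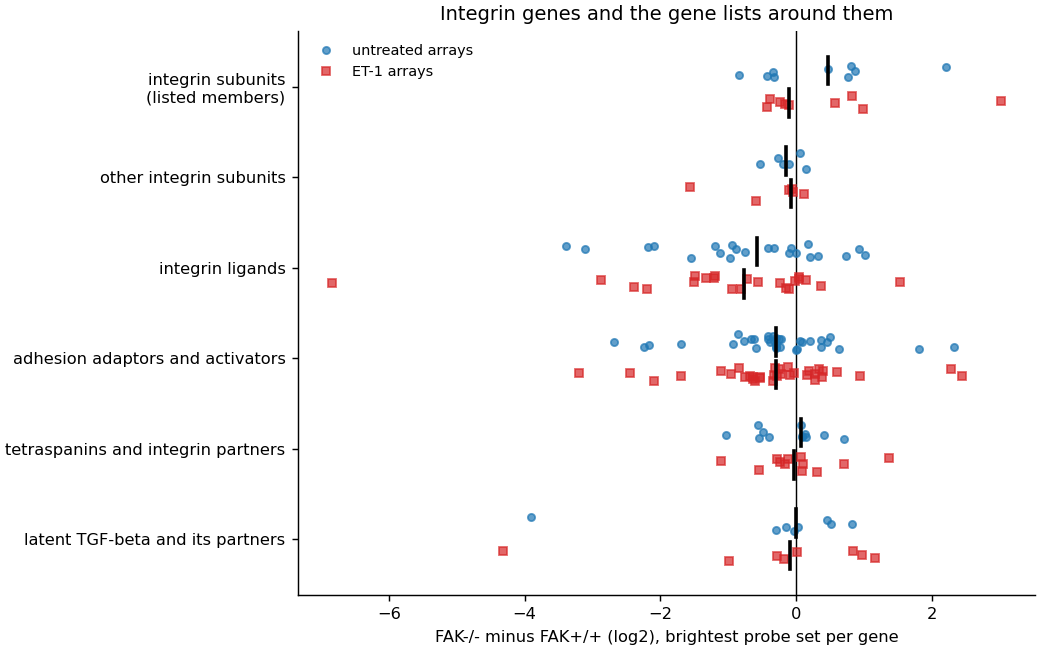
FAK-/- minus FAK+/+ log2 difference by the brightest probe set of each gene that passed the level filter, for the integrin members and 5 gene lists around them, in untreated arrays (circles) and ET-1 arrays (squares); black bars are list medians and vertical scatter within a row carries no value. Itgb8 stands furthest right among the integrin subunits (2.22 untreated, 3.03 after ET-1), and the ligand medians are -0.58 and -0.77.

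Markers of other cell types differed between the genotypes alongside the integrin genes, and in bulk samples fewer cells of a type and less RNA per cell cannot be told apart. All 10 fibroblast markers read above the level filter in both untreated arrays and in ET-1-treated FAK+/+ cells. In ET-1-treated FAK-/- cells 8 did, while Thy1 (6.85) and Prrx1 (8.35) were below it. By limma with 1 probe set per gene, 8 of 10 fell in FAK-/- cells. In that fit, which gave all marker counts below, 6.6% of all 12290 genes were called higher and 7.05% lower. The median level of that list was 11.63 in untreated FAK-/- cells, against 13.59 in untreated FAK+/+ cells, and 11.01 in ET-1-treated FAK-/- cells, against 13.98 in ET-1-treated FAK+/+ cells. Of 8 epithelial markers, 7 passed the filter, 4 rose (Krt8, Krt18, Krt7 and Dsp) and 1 fell (Krt19), with a median level of 10.48 in untreated FAK-/- cells, against 9.65 in untreated FAK+/+ cells, and 10.16 in ET-1-treated FAK-/- cells, against 8.70 in ET-1-treated FAK+/+ cells. Dsp passed the filter only through the FAK-/- arrays, and it read 7.69 untreated and 7.30 after ET-1 in FAK+/+ cells. Epcam differed by -0.26 untreated and -0.39 after ET-1 and Cldn4 by -0.19 and 0.07, and neither passed limma. The epithelial cadherin Cdh1 was below the filter on all arrays. All 5 mesothelial markers passed and 3 rose, with a median level of 13.47 in untreated FAK-/- cells, against 11.69 in untreated FAK+/+ cells, and 13.41 in ET-1-treated FAK-/- cells, against 8.47 in ET-1-treated FAK+/+ cells. The epithelial and mesothelial medians are higher in the FAK-/- arrays, as are Itgb8, Itgb3, Itga3 and Itga6, and any gene higher in FAK-/- cells shares this order. The medians of ET-1-treated FAK+/+ cells rest on the array with the large Gapdh gap. The part of these marker lists in the integrin differences was not tested. Of 7 smooth muscle and pericyte markers 5 passed and 3 fell. Cnn1 fell by 2.65 ± 0.23, Tagln fell by 0.98 ± 0.12 and Acta2 fell by 0.44 ± 0.07 (SE each, limma adjusted p = 0.00995, 0.0191 and 0.033). Of 7 leukocyte markers 2 passed and 1 rose. This was Csf1r, the receptor for the macrophage growth factor CSF-1, with a difference of 1.09 ± 0.12 (SE, limma adjusted p = 0.0146), while Ptprc, the pan-leukocyte marker, was below the filter on all arrays. Of 6 endothelial markers 1 passed, Kdr, at 10.14 to 10.63 on all arrays, and 0 rose or fell; Pecam1 and Cdh5 were below the filter on all arrays. The FAK gene's own level was not analysed here, so the genotype labels were not checked against it.

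The genes whose pattern over the 4 arrays lay nearest to Itgb8, by Euclidean distance of log2 values centred on each gene's mean, were Cpxm1 (distance 0.133), the cytochrome Cyp2s1 (0.141) and the transcription factor Gata4 (0.151). Gata4 read 11.37 in untreated FAK-/- cells, against 9.03 in untreated FAK+/+ cells, and 11.53 in ET-1-treated FAK-/- cells, against 8.66 in ET-1-treated FAK+/+ cells. Nearest to Itga5, the member with the lowest untreated genotype difference by its brightest probe set, were Psap (0.0894), Gas2l3 (0.0967) and the peptide hormone gene Apln (0.107). The distances are over 4 arrays and describe these arrays alone.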

How the data were processed

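Per the labels' protocols, 100 ng of Trizol-extracted total RNA per culture was labelled in 2 cycles and hybridised to 1 array per group. The authors deposited log2 values per probe set, made with RMA per the submitters' processing notes. The values run from 5.00 to 15.24, with array medians of 8.89 to 8.92, and 0 columns belong to other samples. They were used as deposited. Whether a constant had been added before the log was not settled; if so, differences at low levels, such as that of Itgb8, are understated. The number of arrays limits precision.

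Probe sets were named through the platform annotation, and those paired with several genes (932) were left out. Of 34958 probe sets, 20939 whose highest value exceeded 8.90 were fitted with limma 3.58.1 in R 4.3.3 (genotype and treatment as additive terms, eBayes with trend, prior degrees of freedom 2.6), with Benjamini-Hochberg adjustment over all of them. Gene lists were read from the same fit with the brightest probe set per gene (12290 genes). The fit was tested on simulated data with the same noise for every probe set and no genotype by treatment term. That checks the code and not the calls in these data. Single differences have no test. Promoters came from RefSeq; Python 3.11.15 was used. Named list genes are up to 4 per list with the largest smaller genotype difference of the same sign, with others singled out after their values were seen (among them Lama5, Fn1, Ptk2b, Tln1, Tln2, Fermt2, Tgfb1, Tgfb2). The members and lists were chosen with earlier results of these data known. Alternatives covered filter, normalization, probe set summary, eBayes and model.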

Additional observations from a re-analysis of the deposited data

Results flagged for a closer look

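Itgb8 was lower after ET-1 in FAK+/+ cells and higher after ET-1 in FAK-/- cells, each by at least 1.2-fold, and it was the only one of the 18 integrin probe sets tested with such opposite differences. It differed by 0.35 on the log2 scale in FAK-/- cells and by -0.45 in FAK+/+ cells, so the difference of ET-1 differences was 0.81. This difference was not tested, since each value rests on 1 array per group. Both FAK+/+ values lie below the level filter (7.84 untreated, 7.38 after ET-1), and the ET-1-treated FAK+/+ array is the one with the large Gapdh gap, whose part was not tested.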

How the results depend on the processing

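Of the settings tried, the count of integrin probe sets (or genes) that rose in FAK-/- cells by limma, 2 as reported, was 1 with no level filter, without probe sets ending in _x_at or _s_at and without an intensity trend, 4 with a stricter filter, with quantile normalization again and with each gene's probe sets averaged, and 5 with array medians subtracted. The count that fell, 0 as reported, was 1 (an Itgb5 probe set) with the stricter filter. Over all probe sets, 1769 were called as reported and 2917 with array medians subtracted. Itgb8 was called in every setting that tested it (adjusted p from 0.00246 to 0.0417) and was not tested under the stricter filter. Itgb3 had an adjusted p from 0.0176 to 0.0793. For the untreated genotype difference the count at 2-fold or more, 1 as reported, was 0 with the stricter filter and 7 at 1.5-fold. After ET-1 it was 3 as reported, 1 with the stricter filter, the brightest probe set or averaged probe sets, and 6 at 1.5-fold. At 1.5-fold, 3 probe sets differed after ET-1 in FAK+/+ cells and 3 in the difference of ET-1 differences, against 0 at 2-fold in both. The fit without the ET-1-treated or without the untreated array of either genotype has no residual degree of freedom; it gave 2.22 to 3.03 for Itgb8 and 0.82 to 0.87 for Itgb3. No called difference changed sign in any setting. The filter, eBayes and model settings leave the estimate of a probe set unchanged, so its sign could not change there. The causes were not tested. No paired analysis was possible because each group has 1 array.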
